A study of Mus musculus with 10 samples.

Results

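The 10 genes described here encode proteins of epithelial cell adhesion and its surroundings: Cdh1, Cdh2, Epcam, Ctnna1, Ctnnd1, Tjp1, Cldn4, Cldn6, Cldn7 and Vim. They were chosen by name, and all 10 were found once by Ensembl identifier among the 55487 genes of the RNA-seq tables. The cells were E14, a mouse embryonic stem cell line, grown in medium with 15% serum, LIF, 3 µM of a GSK inhibitor and 1 µM of a MEK1/2 inhibitor, and they carried no other labelled treatment or genotype. RNA-seq of total RNA depleted of ribosomal RNA was done in 3 replicates. The labels do not say whether the replicates were separate cultures, so the spread between them may be technical. The other 7 samples of the series map R-loops (RNA paired with DNA) by MapR or BisMapR in the same line, as 2 samples of each method and 3 controls, and were not analysed here. No condition is therefore compared, and every statement is about levels within E14 cells.

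Epithelial cells hold together through adherens junctions, in which a classical cadherin binds its like on the next cell and is anchored inside by catenins. Tight junctions lie beside them and seal the sheet through claudins, membrane proteins held by scaffolds of the zonula occludens family. Mouse embryonic stem cells grow as compact colonies joined by E-cadherin, and loss of E-cadherin in favour of N-cadherin and vimentin is the classical sign of an epithelial to mesenchymal transition.

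Cdh1 had the highest mean of the 10 junction genes, with 44.8 ± 13.5 TPM (SD, n = 3), while Cdh2 had 0.217 ± 0.106 TPM (SD, n = 3). TPM is a transcript level scaled by library size and by transcript length, so that genes can be compared. Genes of effective length under 100 nt hold 60.3%, 65.8% and 63.9% of the TPM of replicates 1, 2 and 3. With them out of the denominator the means were 121.6 TPM for Cdh1 and 0.583 TPM for Cdh2, and the means of the other 8 were higher as well, so TPM is read here as a level relative to other genes. On the deposited scale Ctnna1, Ctnnd1, Vim and Cldn4 lay between 14.5 and 25.8 TPM in the mean, Tjp1 at 6.71, Epcam at 2.68, Cldn6 at 1.05 and Cldn7 at 0.36. Of the 10 genes, 8 reached a mean TPM of at least 1, against 19.8% of all genes and 44.1% of protein-coding genes. The median of the 10 was 10.6 TPM, and that of the 21974 protein-coding genes was 0.457 TPM. The mean of Cldn6 was 0.695 TPM without replicate 1, so its place among the 8 rested on that library.

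Summed estimated counts came to 11420425 in replicate 1, 6467405 in replicate 2 and 5787357 in replicate 3. In CPM, which scales counts by library size but not by length, 3 counts were worth 0.263, 0.464 and 0.518, and all 10 genes had more than 3 counts in every replicate. The share of all genes above that floor was not computed. The stem cell identity in the labels was checked with Pou5f1, Nanog, Sox2, Esrrb, Zfp42 and Tdgf1, whose mean TPM ran from 32.9 to 331. Deposited TPM fell from replicate to replicate for most genes: over 11000 genes with a mean TPM of at least 1, the median log2 difference from replicate 1 was -0.32 in replicate 2 and -0.59 in replicate 3. With counts scaled by TMM, a normalization that sets most genes equal between libraries, both differences were under 0.01 in size. TPM was highest in replicate 1 for 10 of the 10 junction genes, beside 81.9% of expressed genes, and lowest in replicate 3 for 8 of 10, beside 75.6%. On TMM-scaled CPM, 4 of the 8 junction genes that passed a filter on low counts were highest in replicate 1, beside 33.6% of tested genes, and 5 of 8 were lowest in replicate 3, beside 40.4%. Levels are therefore compared below mainly within a replicate, and the spread between replicates on TMM-scaled counts. Where TPM ranges or CPM intervals are set side by side across replicates, differences in scale between libraries remain in them.

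Stretches of DNA before a RefSeq start of 3 of the genes are shown first: a well expressed claudin (Cldn4), a weakly expressed one (Cldn7) and Epcam. Whether they regulate these genes was not tested, and Cldn7 and Epcam have other starts downstream, described below. Each is the 250 bases before the RefSeq start (GRCm38.p6), 5′ to 3′ on the strand of the gene, and capitals mark the E-box CAGGTG or its reverse complement CACCTG, the sequence recognised by repressors of the SNAIL and ZEB families. The Epcam stretch is chr17:87635729-87635978 on the plus strand, the Cldn4 stretch chr5:134946935-134947184 on the minus strand and the Cldn7 stretch chr11:69964529-69964778 on the plus strand. None of the 3 touches an annotated exon.
Epcam: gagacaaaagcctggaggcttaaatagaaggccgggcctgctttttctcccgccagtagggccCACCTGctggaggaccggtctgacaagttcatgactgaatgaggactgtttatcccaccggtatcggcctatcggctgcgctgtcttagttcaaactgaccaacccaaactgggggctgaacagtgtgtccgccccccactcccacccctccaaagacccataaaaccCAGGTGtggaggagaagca
Cldn4: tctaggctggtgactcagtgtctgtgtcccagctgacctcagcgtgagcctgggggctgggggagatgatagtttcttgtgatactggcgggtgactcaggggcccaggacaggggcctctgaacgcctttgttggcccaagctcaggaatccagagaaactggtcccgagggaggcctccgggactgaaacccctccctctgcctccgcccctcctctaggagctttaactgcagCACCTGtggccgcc
Cldn7: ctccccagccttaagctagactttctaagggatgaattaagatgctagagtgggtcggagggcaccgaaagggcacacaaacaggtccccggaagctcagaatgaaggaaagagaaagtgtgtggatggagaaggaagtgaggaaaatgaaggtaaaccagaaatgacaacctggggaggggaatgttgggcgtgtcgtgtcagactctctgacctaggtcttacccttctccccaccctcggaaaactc

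The Epcam stretch holds 2 E-boxes, whose leftmost bases lie at -187 and -19, counting back from -1 for the base just before the start. The Cldn4 stretch holds 1, at -14, and the Cldn7 stretch none. RefSeq lists another start for Cldn7 downstream, and the 250 bases before it (69965171 to 69965420) hold 2 E-boxes, at -97 and -57. Over both strands, 17.2% of 32851 RefSeq promoters of this length hold the motif. Windows were examined for 7 of the 10 genes. Cdh1 had no entry, and chromosome 18, which holds Cdh2 and Ctnna1, was left out. Cldn6 had 1 E-box, at -93, while Ctnnd1, Tjp1 and Vim had none. The windows of Cldn6, Vim and Ctnnd1, and the downstream one of Cldn7, touch annotated exons, so they are not purely sequence upstream of the gene. That of Tjp1 (65371245 to 65371494) touches none, but it lies within the annotated gene, which runs from 65296165 to 65527781. The TATA box TATAAA or its complement, found in 12.4% of promoters, was present before Vim and before 1 of 2 Ctnnd1 starts. Before the RefSeq start of Tjp1, and before the other start of Ctnnd1, the stretches held 22 and 26 CpG dinucleotides, against a median of 6 over all promoters. Epcam, Cldn4 and Cldn7 (at the upstream start) had 8, 7 and 6. These matches describe the letters of the windows only.

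Cadherins were examined first. Cdh1 (ENSMUSG00000000303, chromosome 8, 106603351 to 106670246, 16 exons) encodes E-cadherin, the adhesion receptor of epithelia and of stem cell colonies. It had 58.6, 44.0 and 31.8 TPM in replicates 1, 2 and 3, from 6619, 3421 and 2468 counts. Its mean ranked 576 of the protein-coding genes, above 97.4% of them. Replicate 3 was lowest and replicate 1 highest, as for most genes on this scale.

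Cdh2 (ENSMUSG00000024304, chromosome 18, 16588877 to 16809246, 16 exons) encodes N-cadherin, the classical cadherin of neural and mesenchymal cells. It had 0.33, 0.20 and 0.12 TPM, from 36, 14 and 8 counts. The listed length was 4184, 3750 and 3785 nt, below the 4843 nt of the transcript with 16 exons. In replicate 3 that length was the one of a coding transcript with 15 exons. In CPM the Wilson 95% intervals were 2.28 to 4.36, 1.29 to 3.63 and 0.70 to 2.73, so the level was low but above the floor of 3 counts in each library. The TPM of Cdh1 was 178, 220.2 and 265 times that of Cdh2, with no overlap between the genes. As log2 with a pseudocount of 0.1 the difference was 7.16 ± 0.06 (SD, n = 3). It was 5.20 with a pseudocount of 1 and 7.69 with 0.01, since the denominator is near the size of the pseudocount.

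Cdh1 accounted for 97.6% ± 0.585 (SD, n = 3) of the summed TPM of 9 classical and related cadherins. It was the one gene of that list at a mean TPM of at least 1, a level that 44.1% of protein-coding genes reach. Cdh3, which encodes P-cadherin, followed at 0.673 ± 0.299 TPM (SD, n = 3), and Cdh4 had 0.207 ± 0.102 TPM (SD, n = 3). Cdh5, the cadherin of blood vessel endothelium, had 0 counts in every replicate.

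**Figure D1:**
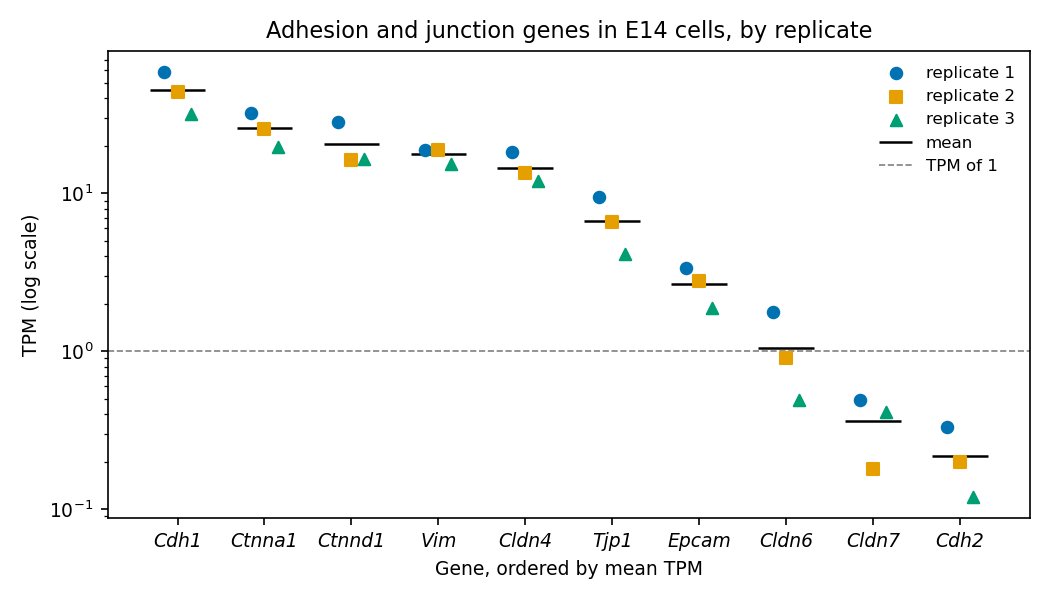
TPM (log axis) of the 10 genes in replicates 1, 2 and 3, with a line at the mean of the replicates and a dashed line at a TPM of 1. Cdh1 sits between 31.8 and 58.6, Cdh2 and Cldn7 lie below 1 in every replicate, and Cldn6 straddles the line with 1.77, 0.90 and 0.49.

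The catenins bind the cadherin inside the cell. Ctnna1 (ENSMUSG00000037815, chromosome 18, 35118859 to 35254779, 18 exons) encodes alpha-E-catenin, which couples the cadherin complex to actin filaments. It had 32.1, 25.7 and 19.7 TPM, from 2735, 1542 and 1205 counts. On TMM-scaled CPM its values were 227.9, 231.1 and 225.7, an SD of 0.02 in log2, where genes of like abundance had a median SD of 0.15. The related genes Ctnna2 and Ctnna3 had at most 1 count in any replicate, and Ctnna1 made up 99.99% ± 0.018 (SD, n = 3) of the summed TPM of the 3 alpha-catenin genes.

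Ctnnd1 (ENSMUSG00000034101, chromosome 2, 84600071 to 84650765, 21 exons in its longest coding transcript) encodes p120-catenin, which binds the cadherin tail near the membrane and keeps the cadherin at the cell surface. It had 28.4, 16.3 and 16.5 TPM, from 2339.1, 1058.9 and 948.6 estimated counts. On TMM-scaled CPM it had 194.9, 158.7 and 177.8, with replicate 1 highest and replicate 2 lowest. Ctnnd1 is overlapped on the same strand by Gm28635, a protein-coding gene that runs from 84601439 to 84678041, and its counts, alone among the 10 genes, were fractional, as estimated counts are where a read matches more than 1 gene. Gm28635 was given 133.2, 216.5 and 103.2 counts, most in the replicate where Ctnnd1 had fewest TPM. In CPM without TMM scaling, the sum of both genes was 216.5, 197.2 and 181.7, beside 204.8, 163.7 and 163.9 for Ctnnd1 alone. These values are not on the scale of the TMM-scaled ones above, so their fall between replicates includes library scaling. The split between them, and so the level of Ctnnd1, is uncertain to that extent.

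The listed mean length of Ctnnd1 transcripts adds to this. It was 3173, 3570 and 3164 nt, although 25 of its 30 annotated transcripts have 5044 nt or more and the other 5 have 406 to 823 nt. A mean of that size requires that at least 40.3%, 31.8% and 40.5% of the TPM of Ctnnd1 was assigned to the 5 short transcripts, which are annotated as processed transcripts without a coding sequence. Less than the full 20.4 ± 6.95 TPM (SD, n = 3) of Ctnnd1 therefore stands for p120-catenin messages.

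Ctnna1 exceeded Ctnnd1 in 3 of 3 replicates, by 0.36 ± 0.26 (SD, n = 3) in log2 TPM, although the ranges of the genes overlapped. Cdh1 exceeded Ctnna1 by 0.78 ± 0.09 (SD, n = 3), also in 3 of 3. With 3 replicates the exact two-sided sign-flip test cannot go below 0.25, so no pair difference was tested. Of the other catenin and plaque genes, Ctnnb1, which encodes beta-catenin, the protein stabilised when GSK3 is inhibited, had 132 ± 30.2 TPM (SD, n = 3), and Jup, which encodes plakoglobin, 8.46 ± 2.74 TPM (SD, n = 3). Vcl and Afdn, which encode the actin linkers vinculin and afadin, had 10.2 ± 2.76 and 11.7 ± 2.43 TPM (SD, n = 3). In that list 6 of 9 genes had a mean TPM of at least 1, Ctnna1 and Ctnnd1 among them, beside 44.1% of protein-coding genes.

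Tjp1 (ENSMUSG00000030516, chromosome 7, 65296165 to 65527781, 28 exons) encodes ZO-1, the scaffold that ties claudins and occludin to actin. It had 9.42, 6.58 and 4.13 TPM, from 1463, 739 and 427 counts. Every replicate lay below the lowest Ctnna1 value, and the log2 ratio of Tjp1 to Ctnna1 was -1.98 ± 0.23 (SD, n = 3).

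Among 11 tight junction scaffold and transmembrane genes, 7 reached a mean TPM of at least 1, beside 44.1% of protein-coding genes. Magi1 had 6 ± 2.13 TPM (SD, n = 3), and F11r, which encodes the adhesion molecule JAM-A, 5.52 ± 0.421 TPM (SD, n = 3). Ocln, which encodes occludin, had 1.71, 2.29 and 0.92 TPM, or 125, 70 and 48 counts. Cgn and Marveld2, which encode cingulin and tricellulin, were under 1 TPM in every replicate.

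Of the 3 claudins chosen, Cldn4 had the highest level and Cldn7 the lowest. Cldn4 (ENSMUSG00000047501, chromosome 5, 134945119 to 134946934, a single exon) had 18.19, 13.35 and 11.96 TPM, from 828, 423 and 382 counts. Its replicates were even once scaled by TMM, at 68.996, 63.4 and 71.6 CPM. Because the gene has 1 exon, reads of spliced and unspliced RNA cannot be told apart for it.

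Cldn6 (ENSMUSG00000023906, chromosome 17, 23679249 to 23682446, 3 exons), a claudin of embryonic epithelia, had 1.77, 0.90 and 0.49 TPM, from 64, 24 and 13 counts. The Wilson 95% intervals of its CPM were 4.39 to 7.16, 2.49 to 5.52 and 1.31 to 3.84. Those of replicates 1 and 3 did not overlap, and that of replicate 2 overlapped both.

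Cldn7 (ENSMUSG00000018569, chromosome 11, 69964779 to 69967885, 4 exons in its longest coding transcript), a claudin that binds EpCAM, had 0.49, 0.18 and 0.41 TPM, from 16, 4 and 6 counts. Replicate 2 was lowest in counts and in TPM, and the length assigned widened its TPM gap to replicate 3. The listed length was 1335 nt in replicates 1 and 2, that of a coding transcript with 4 exons, and 913 nt in replicate 3, that of one with 5 exons. The former starts at 69965396, and the latter at 69964779, just after the Cldn7 stretch printed above. In CPM the 3 intervals (0.86 to 2.28, 0.24 to 1.59 and 0.48 to 2.26) all overlapped.

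Cldn4 therefore carried most claudin transcripts, 67.8% ± 2.52 (SD, n = 3) of the summed TPM of 18 claudins. Cldn12, at 4.45 ± 1.33 TPM (SD, n = 3), held 20.6% ± 3.3 (SD, n = 3) and Cldn6 4.61% ± 1.8 (SD, n = 3). By CPM the shares of Cldn4 and Cldn12 were 58.0% and 34.2%. The log2 TPM ratio of Cldn7 to Cldn4 was -5.03 ± 0.52 (SD, n = 3). Cldn7 was also below Cldn6 in 3 of 3 replicates, where the TPM of Cldn6 was 3.61, 5 and 1.195 times that of Cldn7. The ranges of Cldn6 and Cldn7 touched, since the lowest Cldn6 value and the highest Cldn7 value were both 0.49. Of the 18 claudins, 3 had a mean TPM of at least 1, beside 44.1% of protein-coding genes. No more than 3 counts in any replicate were found for 11 of the 18, and the matching share of all genes was not computed. Cldn1, Cldn8, Cldn10, Cldn16 and Cldn23 had 0 counts in all 3.

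Epcam (ENSMUSG00000045394, chromosome 17, 87635979 to 87651129, 10 exons) encodes EpCAM, a membrane glycoprotein of epithelia and stem cells that binds claudin-7. It had 3.37, 2.78 and 1.88 TPM, from 147, 82 and 42 counts. Its mean was above 66.7% of protein-coding genes, whereas that of Cdh1 was above 97.4%. It exceeded Cldn7 in 3 of 3 replicates, by 2.63 ± 0.71 (SD, n = 3) in log2, without overlap.

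The listed length of Epcam in replicate 1 was 1745 nt, that of a coding transcript with 9 exons, and not the 2040 nt of the longest of its 5 annotated transcripts. The shorter of these starts at 87636682, 703 bases downstream of the gene start and inside an exon of the longer. In replicates 2 and 3 the listed length was 1699 and 1309 nt, so shorter transcripts were also assigned part of the TPM. The Epcam stretch printed above precedes the longer transcript. The 250 bases before the downstream start (chromosome 17, 87636432 to 87636681) hold 28 CpG dinucleotides, 1 E-box at -105 and 4 GC boxes (GGGCGG or its complement, found in 32.7% of promoters), and 67.6% of them are G or C. They are not printed because they overlap an untranslated exon.

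Of 4 other genes listed with EpCAM, 3 reached a mean TPM of at least 1, beside 44.1% of protein-coding genes. Spint1 and Spint2, which encode inhibitors of the membrane protease matriptase, had 8.39 ± 2.98 and 7.92 ± 3.26 TPM (SD, n = 3), and St14, which encodes matriptase, 5.44 ± 1.92 TPM (SD, n = 3). All 3 had higher means than Epcam.

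**Figure D2:**
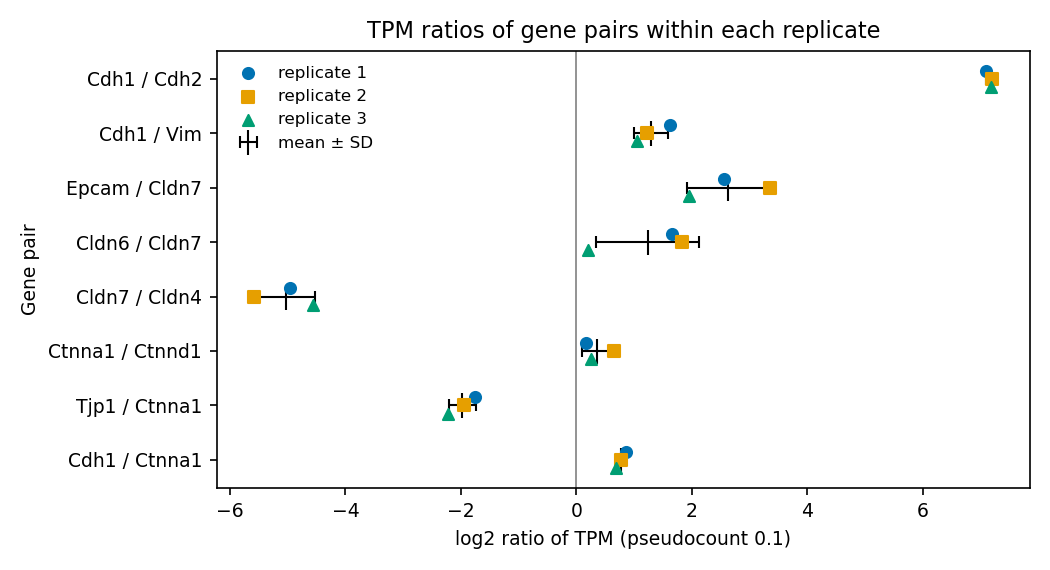
Log2 ratio of TPM (pseudocount 0.1, horizontal axis) for 8 gene pairs in replicates 1, 2 and 3, with mean and SD. Cdh1 over Cdh2 lies near 7.16 with a narrow spread, while the ratios with Cldn7, which had 16, 4 and 6 counts, spread over more than 1 log2 unit.

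Vim (ENSMUSG00000026728, chromosome 2, 13573927 to 13582826, 9 exons in its longest coding transcript) encodes vimentin, the intermediate filament protein of mesenchymal cells. It had 18.9, 18.8 and 15.3 TPM, from 894, 473 and 418 counts, the smallest relative spread of the 10 genes on this scale. The listed length was 1879, 1475 and 1570 nt, below the 2193 nt of the longest coding transcript. Vim exceeded Cldn4 in 3 of 3 replicates and Ctnnd1 in 1 of 3. Cdh1 exceeded Vim 3.10-, 2.35- and 2.07-fold in TPM, or 1.3 ± 0.30 (SD, n = 3) in log2, and by 2.77 in log2 CPM, where the greater length of Cdh1 counts.

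Vim and Cdh2, which are often read together as mesenchymal genes, thus lay far apart: the mean TPM of Vim was 81.6 times that of Cdh2. Among 10 intermediate filament genes Vim held 76.4% ± 3.38 (SD, n = 3) of the summed TPM. Nes, which encodes nestin, had 1.92 ± 0.393 TPM (SD, n = 3). The keratins of simple epithelia were low, with Krt8 at 1.05 ± 0.217 and Krt18 at 0.603 ± 0.202 TPM (SD, n = 3). The epidermal keratins Krt5 and Krt14 had 0 counts.

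Placed in order of mean TPM, the 10 genes ran Cdh1, Ctnna1, Ctnnd1, Vim, Cldn4, Tjp1, Epcam, Cldn6, Cldn7 and Cdh2. Replicate ranges did not overlap at 3 steps of this order: Cldn4 above Tjp1, Tjp1 above Epcam, and Epcam above Cldn6. At 4 other steps the ranges overlapped but the order was kept within 3 of 3 replicates. The order of Ctnnd1 and Vim, and that of Cldn7 and Cdh2, held in 2 of 3 replicates, so neither pair could be ordered.

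The remaining junction systems were read from lists, beside the 44.1% of protein-coding genes that reach a mean TPM of at least 1. Of 11 desmosome genes, 6 had a mean TPM of at least 1, a share near that background, led by Pkp4 at 13.2 ± 3.24 and Jup, with the desmosomal cadherin Dsg2 at 7.13 ± 1.82 TPM (SD, n = 3). Dsc3 and Pkp1 had 0 counts. Of 6 gap junction genes, 4 passed, with Gjb5 at 12.6 ± 1.81 and Gjc1 at 9.38 ± 1.75 TPM (SD, n = 3). Of 4 nectins, immunoglobulin-type adhesion molecules of adherens junctions, 3 passed, and of 11 polarity genes 10 passed, Prkci, which encodes an atypical protein kinase C, being highest at 18.8 ± 3.46 TPM (SD, n = 3).

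Regulators on both sides of the epithelial to mesenchymal axis were measured beside Cdh1 and Vim, and are read against the same 44.1%. Of 9 transcription factors of the transition, 2 reached a mean TPM of at least 1, Tcf4 at 8.49 ± 2.25 and Zeb1, a repressor that binds E-boxes, at 3.47 ± 0.605 TPM (SD, n = 3). Snai1 had 0.57, 0.25 and 0.21 TPM from 23, 7 and 6 counts, and Twist2 had 0 counts. Of 10 epithelial regulators, 4 passed, which is near that share. These were Klf5 at 27.9 ± 10.5, Elf3 at 14.3 ± 5.4, Grhl3 at 3.25 ± 1.13 and Esrp2 at 1.45 ± 0.251 TPM (SD, n = 3), while Grhl2 had 0.313 ± 0.191 TPM (SD, n = 3).

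Of 9 mesenchymal effector genes, 3 passed, against the same 44.1% of protein-coding genes. Fn1, which encodes fibronectin, had 113.7, 77.5 and 27.8 TPM, higher than Cdh1 in replicates 1 and 2 and lower in replicate 3. Sparc had 33.4 ± 9.96 TPM (SD, n = 3), above Vim, and Itga5 6.60 ± 2.18 TPM (SD, n = 3). Acta2 had 0 counts in every replicate.

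**Figure D3:**
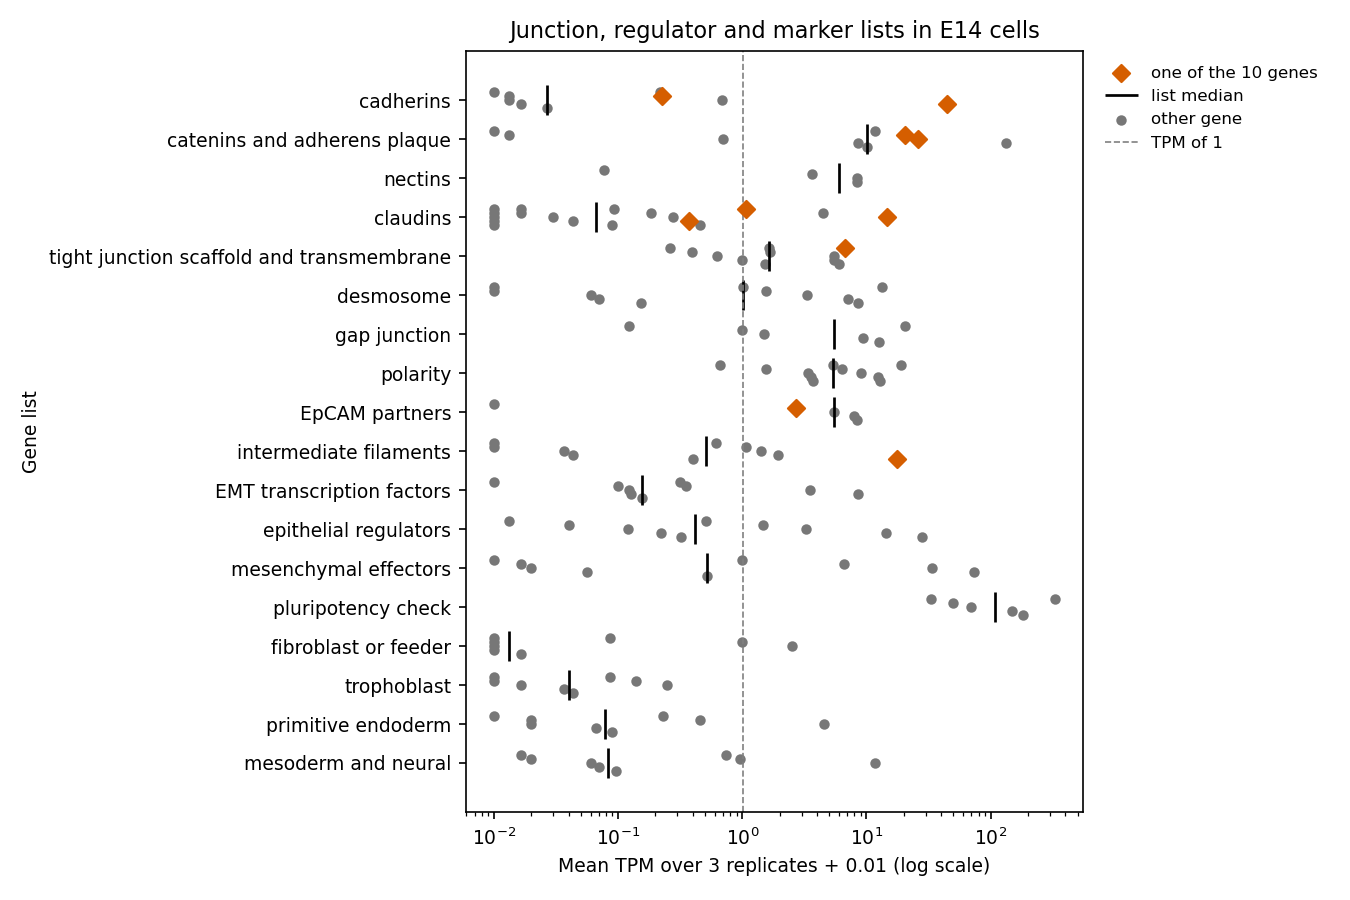
Mean TPM over 3 replicates plus 0.01 (log axis) of each gene in 18 lists, with diamonds for the 10 genes, a line at each list's median and a dashed line at a TPM of 1. Cdh1 and Cldn4 stand at the right of mostly empty families, whereas 10 of 11 polarity genes lie at or above a TPM of 1.

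Markers of other cell types that a culture could hold were summed in each replicate. Summed over 8 genes, trophoblast markers had 0.43 to 0.63 TPM across replicates, with Plac1 and Prl3d1 at 0 counts. Fibroblast or feeder markers summed to 1.79 to 4.57 TPM over 8 genes. Of these Thy1, at 2.50 ± 1.15 TPM (SD, n = 3), was the one above a mean TPM of 1, and Col3a1, Postn, Lum and Dcn had 0 counts. Primitive endoderm markers summed to 3.09 to 7.21 TPM over 8 genes, mostly Lama1 at 4.53 ± 1.73 TPM (SD, n = 3), with Foxa2 at 0 counts. Mesoderm and neural markers summed to 11.4 to 16.5 TPM over 8 genes, mostly Tubb3 at 11.6 ± 2.47 TPM (SD, n = 3). The 10 junction genes summed to 102.3 to 171.7 TPM. The part of these other cell types in the levels of Cdh1, Vim and the claudins was not tested. In RNA from whole cultures, fewer cells of a type and less RNA per cell cannot be told apart.

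Spread between replicates was tested across genes. Of 12577 genes that passed the filter on low counts, 1.84% varied more than the edgeR dispersion trend allows (goodness-of-fit test with p adjusted by Benjamini-Hochberg, threshold 0.05). Of the 8 junction genes that passed the filter, 0 were called by edgeR. With DESeq2 size factors in place of TMM, 0 of the 8 and 231 of the 12577 genes were called. An unadjusted p under 0.05 in the edgeR test was found for 0 of the 8, beside 875 of the 12577 genes. With background shares this small, 0 of 8 does not set these genes apart from the rest. Cdh2 and Cldn7 did not pass the filter. The smallest unadjusted p was that of Cldn6, 0.108, with an adjusted p of 1.00 by edgeR. Of 71 other listed genes tested, 1 was called, Fn1, with 1410, 1299 and 491 TMM-scaled CPM and an adjusted p of 0.0125 by edgeR.

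The replicates' deviations followed transcript length over all genes, and the 8 junction genes tested span mean lengths from 1519 nt (Cldn6) to 5834 nt (Tjp1). In replicate 3 the decile of tested genes with the longest transcripts lay at a median of -0.15 and that with the shortest at 0.23 in log2 TMM-scaled CPM, relative to each gene's mean. Tjp1, in the decile of the longest, had 121.9, 110.7 and 80.0 TMM-scaled CPM and deviated by -0.36 in replicate 3. Cdh1 deviated by -0.13 there, where genes of its length had a median of -0.09. Vim and Cldn4 deviated by 0.07 and 0.08, where the median was 0.03.

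Epcam and Cldn6 lay away from the median of genes of their length. In replicate 3, with 42 and 13 counts, they deviated by -0.42 and -0.55, where the median of their length decile was 0.07. The spread of genes within that decile was not computed. Epcam had 12.2, 12.3 and 7.87 TMM-scaled CPM, and Cldn6 5.33, 3.60 and 2.44. Their SD in log2 was 0.37 and 0.55, against a median of 0.21 and 0.27 for genes of like abundance, and neither passed the test above. When each replicate was corrected smoothly for gene length, 176 genes in place of 232 were called by edgeR, and again 0 of the 8. The unadjusted p of Tjp1 went from 0.167 to 0.523 in the edgeR test, that of Epcam from 0.252 to 0.136 and that of Cldn6 from 0.108 to 0.0542 (adjusted p 0.807).

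**Figure D4:**
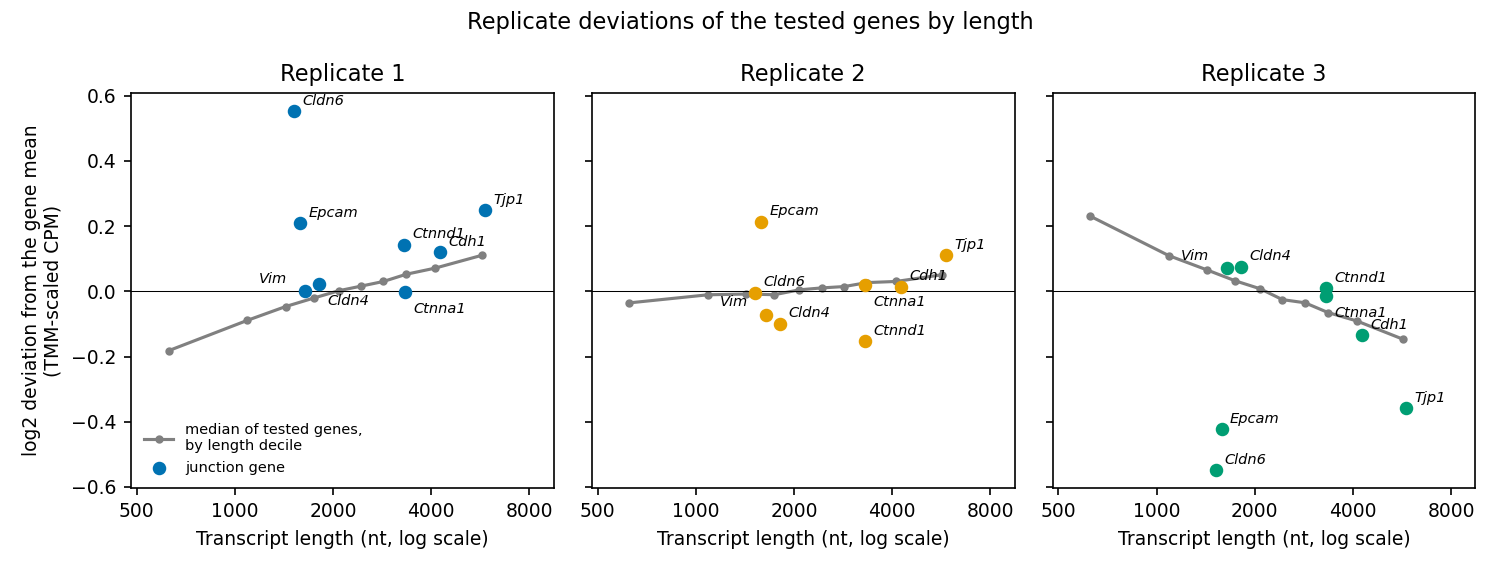
Replicate deviations about each gene's own mean (log2 TMM-scaled CPM) against transcript length (nt, log axis) for the 8 tested junction genes, with the median of all 12577 tested genes by length decile as a grey line. In replicate 3 Tjp1 lies below the falling line at -0.36, and Epcam and Cldn6 lie at -0.42 and -0.55 where the line is above 0.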

How the data were processed

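Estimated counts, which the authors deposited without normalization, and TPM, which the authors deposited in the same tables, came from 3 RNA-seq libraries, and per the file headers the columns are those of RSEM gene output, with length and effective length in nt. Per the submitters' processing notes STAR and RSEM were among the tools and mm10 was the genome build; versions, annotation release and strand setting are not given in the sources used here. Of 55487 gene IDs, 55227 matched GENCODE vM21 (GRCm38), which gave names, positions and transcripts, and all listed transcripts of the 10 genes matched.

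Counts were rounded for edgeR 4.0.16 in R 4.3.3 (filterByExpr, TMM, trended dispersion, intercept-only design) and the goodness-of-fit test was tested on simulated data. Its power to detect spreads of the size seen in these genes is not reported here. Other steps used Python 3.11.15, pandas 2.3.3, scipy 1.17.1 and matplotlib 3.10.9. DESeq2 1.42.0 gave the alternative size factors. Ratios were log2 with a pseudocount of 0.1. Wilson 95% intervals and the floor of 3 counts reflect counting error alone, because reads copied by PCR do not count separate molecules. The 10 genes and the 18 lists (148 genes besides the 10) were chosen with earlier results of these data known. At most the 4 highest genes of a list and those at 0 counts were to be named; Vcl, Ctnna2, Ocln, Cgn, Marveld2, Krt18 and Grhl2, and Sox2 and Esrrb of the stem cell check, were named outside that rule, after their values were seen. Alternatives changed the limit, pseudocount, length scaling, denominator, normalization, filter, dispersion and replicates. Some listed genes are not reported here.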

Additional observations from a re-analysis of the deposited data

How the results depend on the processing

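Over 47 results, 241 alternatives were computed, of which 169 were planned and 72 chosen after seeing the data. Of these, 201 were labelled the same and 40 moved, by at least the replicate SD or, for counts, by more than a set fold. For ratios, means and shares, leaving out 1 of 3 replicates cannot move the mean by the replicate SD. Those alternatives were therefore labelled the same in advance, as were those of the filter on counts of a pair. Their labels say nothing of robustness. Only the 60 alternatives of the pair ratios could be labelled reversed, and 60 of 60 kept their direction. Each pair kept its order in 3 of 3 replicates, so changes of pseudocount, denominator or replicates could not reverse it. The filter on counts left values unchanged, so only CPM could have reversed a ratio. The log2 ratio of Cdh1 to Cdh2, 7.16, became 5.20 with a pseudocount of 1, 7.69 with 0.01, 7.84 with CPM and 7.51 with short genes (effective length below 100 nt) dropped from the TPM denominator. With a pseudocount of 1, Epcam to Cldn7 became 1.42 and Cldn7 to Cldn4 -3.50. With CPM, Cdh1 to Vim became 2.77, Cldn7 to Cldn4 -5.99, Tjp1 to Ctnna1 -1.15 and Cdh1 to Ctnna1 1.15; CPM leaves length in by construction, and the cause was not otherwise tested. Of the 148 listed genes other than the 10, 57 had a mean TPM of at least 1, beside 44.1% of protein-coding genes, and 36 a mean of at least 5. The number of the 10 genes passing was from 6 (limit of 5) to 10 (CPM). The shares of all genes at a mean TPM of at least 5, or at a CPM of at least 1, were not computed. Dropping short genes from the TPM denominator raised the mean TPM of Cdh1 to 121.6 and of Epcam to 7.28. The 3 ratios with Cldn7 and that of Cdh1 to Cdh2 had under 10 counts of a gene in some replicate, so the filter on counts gave no value for them. Depth limits Cdh2, Cldn6 and Cldn7 most.

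No paired analysis was possible because the RNA-seq replicates form a single group.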
